A study of Phyllotreta striolata with 15 samples.

Results

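Of 11862 genes counted in the striped flea beetle, Phyllotreta striolata, 160 were high in eggs and at most a small fraction of that level in every other group. These egg genes were chosen by the authors' group means of TPM, a transcript level scaled by gene length and library size. A gene was taken when its egg mean was at least 2 TPM and at least 5 times the highest of the other 4 groups. The same 160 identifiers make up the egg list in the authors' deposited table. P. striolata is a leaf beetle that feeds on cruciferous crops, with larvae in the soil and adults on the leaves. RNA came from whole bodies of eggs, larvae, pupae, female adults and male adults, with 3 libraries in each group. The labels name no strain, age or treatment for any group, and none says how many individuals or egg clutches went into a library, so p-values below measure the spread between these libraries, which may be partly technical. In whole bodies, fewer cells of a type and less RNA per cell cannot be told apart.

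An insect egg starts out with RNA that the mother's ovary put into it, and this maternal RNA is broken down while the embryo's own genome becomes active. A whole female body holds the ovaries, so maternal RNA can be seen in female adults as well as in eggs, while RNA made by the embryo alone is not. Later stages carry on some of the work of the embryo, such as building cuticle and nerve tissue, and the pupa builds the adult body in a further round of growth and patterning. The files give each gene as an identifier with no name, and no annotation was used here, so the roles of single egg genes are not stated and no sequences are shown.

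Library totals ran from 16509113 to 32598781 counts. Larva replicate 1 stood apart from the other larval libraries, with a Spearman's rho across genes of 0.833 to 0.861 with them, against 0.961 between those 2. The egg genes were also lowest in that library among the larval ones. Their median was 1.14 CPM in larva replicate 1, against 1.33 and 2.03 CPM in larva replicates 2 and 3. They took 0.278% of its counts, against 0.357% and 0.413%. These levels do not show whether the pattern across egg genes stood apart. CPM here means counts per 1000000 after TMM scaling, which evens out differences in composition between libraries. The count columns carry 3 name prefixes, 1 for eggs, 1 for pupae and 1 shared by larvae and adults. What the prefixes stand for is not given, so a difference between eggs and any other group, or between pupae and any other group, cannot be told apart from a difference between prefixes.

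The egg genes spanned a wide range of levels in eggs. Their median was 100.4 TPM and their quartiles 29.7 and 346 TPM, against a median of 38.5 TPM over the 8343 genes with at least 2 TPM in eggs. Of the 160, 15 lay under 10 TPM, 64 between 10 and 100, 61 between 100 and 1000, and 20 at 1000 TPM or more. Among the 500 genes of highest egg TPM, 49 were egg genes, and among the top 10 there were 2. In the other groups the median level of the same genes was 1.30 TPM in larvae, 2.96 TPM in pupae, 1.85 TPM in female adults and 1.90 TPM in male adults. Larvae listed 87 of them at 1 TPM or more, pupae 114, female adults 94 and male adults 99.

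Together the egg genes took 6.03%, 4.97% and 6.39% of the counts of egg libraries 1, 2 and 3. The mean was 5.80 ± 0.740% (SD, n = 3). They took 0.349 ± 0.0680% in larvae, 0.380 ± 0.101% in pupae, 0.423 ± 0.0756% in female adults and 0.269 ± 0.0241% in male adults (n = 3 each). These shares follow from the choice of genes and carry no test. The signal was concentrated, since the 10 highest egg genes of each egg library held 49.96% to 53.95% of it. Between 154 and 156 of the 160 reached 1 CPM in each egg library. In the other libraries 87 to 96 did in larvae, 100 to 108 in pupae, 78 to 83 in female adults and 90 to 97 in male adults, while over all genes the share at 1 CPM was lower in eggs, at 69.5% to 74.5%, against 79.4% to 89.3% in the other groups.

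**Figure D1:**
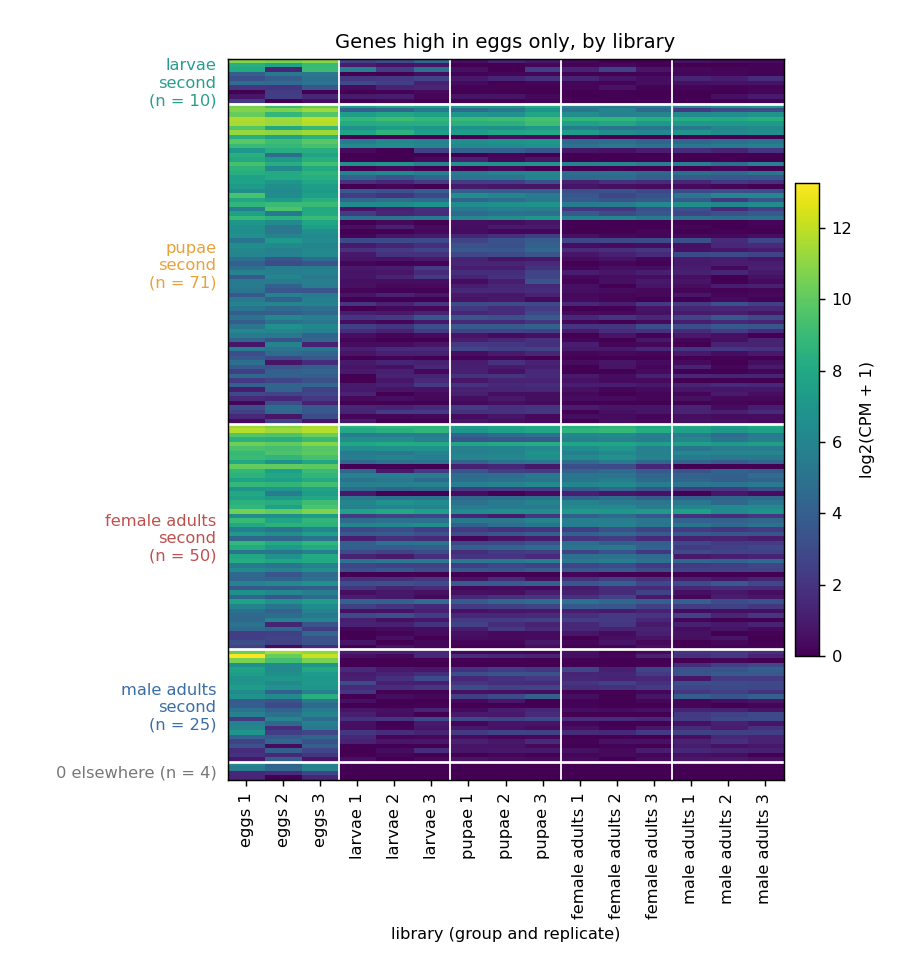
Each line of the heat map is 1 egg gene and each column 1 library, coloured by log2(CPM + 1); lines are grouped by the group that comes second to eggs in the authors' TPM, with 10 genes for larvae, 71 for pupae, 50 for female adults and 25 for male adults, and 4 genes listed at 0 outside the egg. Between 154 and 156 of the 160 genes reach 1 CPM in each egg column, and outside the egg the genes with female adults second are the brightest set.

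The 160 genes differed in how fully they were limited to eggs. In 83 of them the egg level was 5 to 10 times that of the highest other group, in 33 it was 10 to 20 times and in 21 it was 20 to 100 times. The remaining 23 were 100 times higher or more, and 4 of these were listed at 0 TPM in every other group. The median ratio over all 160 was 9.85. Genes in the 5 to 10 band had a median egg level of 154 TPM, and those in the 10 to 20 band one of 40.9 TPM. The band of 20 to 100 was at 55.5 TPM, and the band of 100 and over at 345 TPM, so the most restricted genes were not the weakest ones.

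Libraries were also compared one by one, without averaging. The lowest egg library lay above the highest of the 12 other libraries in 140 of the 160 egg genes, where 15.6% of the 11440 genes tested met this. The choice of genes used this contrast, so the count is a description. The 20 genes with overlap were mostly weak in eggs, with a median of 12.3 TPM, and their highest and lowest egg libraries differed by a median of 23.4 times. In the fit across all genes described below, 156 egg genes could be tested. Of these, 151 were called higher in eggs than in larvae, beside 27.3% of all genes. The same held for 150 against pupae (25.1% of all genes), 154 against female adults (17.7%) and 152 against male adults (26.7%). These calls too follow from the choice of genes.

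**Figure D2:**
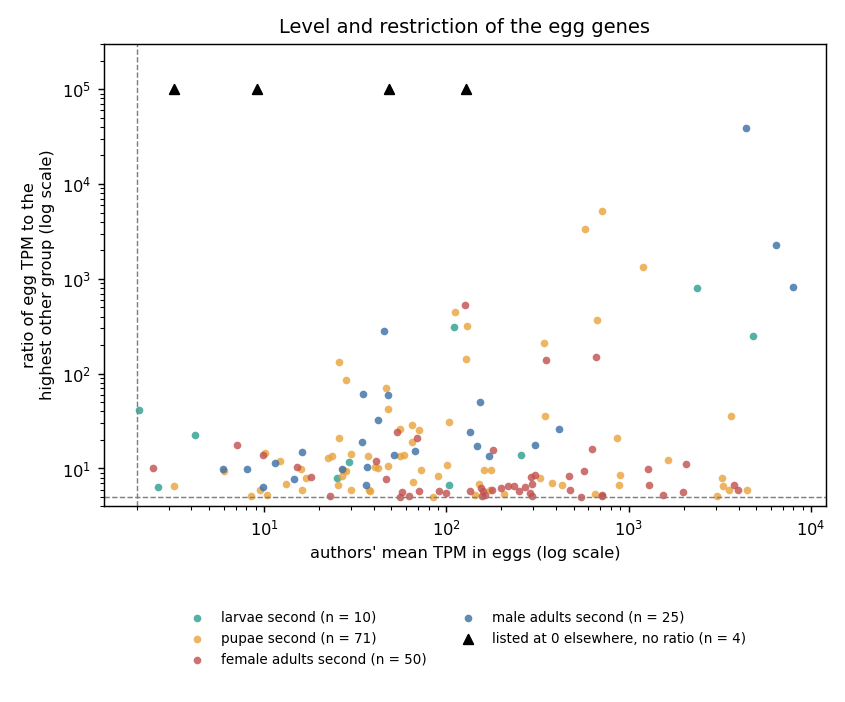
The horizontal axis is the authors' mean egg TPM and the vertical axis the ratio of egg TPM to the highest other group, both on log scales; dots are coloured by the group that comes second, dashed lines mark the limits of 2 TPM and 5-fold, and triangles, placed at an arbitrary height, are the 4 genes listed at 0 elsewhere, which have no ratio. Most dots with female adults second lie close to the 5-fold line, with a median ratio of 6.46.

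The 4 genes with no count in any of the other 12 libraries, named because they are so few, were CAG9857263.1, CAG9858069.1, CAG9865054.1 and CAG9855659.1. CAG9857263.1 had 76.1, 17.98 and 66.2 CPM in egg libraries 1, 2 and 3, a mean of 129 TPM. CAG9858069.1 had 45.9, 19.8 and 58.1 CPM, or 48.4 TPM. Both were lowest in egg library 2. CAG9865054.1 and CAG9855659.1 were far weaker, at 9.19 and 3.20 TPM, and CAG9855659.1 had no count in egg library 2. CAG9859170.1 and CAG9861231.1 came next, each with 3 counts over the 12 libraries outside the egg. CAG9861231.1 held 14673 counts in the egg libraries and CAG9859170.1 held 1559.

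Every egg gene with counts outside the egg was placed by the group with the next highest TPM. Pupae came second for 71 genes (44.4%), female adults for 50 (31.3%), male adults for 25 (15.6%) and larvae for 10 (6.25%). Over the 8343 genes at 2 TPM or more in eggs, the highest other group was pupae in 26.8%, female adults in 53.8%, male adults in 11.4% and larvae in 8.02%. Among the egg genes, pupae thus took the leading place that female adults held over all genes. The rule itself caps the level of every other group, so this shift is a description with no test. The placing rests on TPM and can differ in CPM, and the genes that would change place were not counted. CAG9853835.1, for example, had female adults second in TPM but means of 51.5 CPM in larvae and 28.7 CPM in female adults. In TPM, genes with female adults second were the most abundant and the least restricted, at a median of 208 TPM in eggs and 30.6 TPM in female adults. Genes with pupae second had medians of 65.3 TPM in eggs and 3.38 TPM in pupae, those with male adults second 45.6 and 2.75 TPM, and those with larvae second 66.2 and 2.72 TPM.

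Larvae came second for CAG9860080.1 and CAG9858070.1, which had the highest egg TPM of that set. CAG9860080.1 had 1767, 1548 and 1913 CPM in eggs, against 5.24, 7.28 and 19.0 CPM in larvae and 0.416, 1.43 and 0.726 CPM in pupae. It had 0.231, 0 and 0 CPM in female adults and 0.578, 0.379 and 0.292 CPM in male adults. The level thus stepped down from eggs to larvae and again to later groups, with no overlap between eggs and any other group or between larvae and the later groups. CAG9858070.1, the other member, had 324, 218 and 497 CPM in eggs and 1.05, 0.549 and 0.737 CPM in larvae, and 14 counts in all over pupae and adults, of which pupae held 4, female adults 8 and male adults 2. Its length, as implied by counts and TPM, was 0.154 of that of the median gene, and its mean in eggs was 2370 TPM.

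Pupae came second for CAH1188760.1 and CAG9854464.1. CAH1188760.1 had 1486, 555 and 1073 CPM in eggs. It stayed well expressed in every other group, with 173, 248 and 184 CPM in larvae, 163, 139 and 288 CPM in pupae, 68.2, 45.4 and 50.3 CPM in female adults and 69.7, 102.6 and 127.5 CPM in male adults. Eggs did not overlap with any of them, while larvae and pupae did overlap. Its TPM in eggs, 4461, was 5.87 times that in pupae, close to the limit. CAH1188806.1, named after its values were seen, had the same implied length, 0.244 of the median gene, and 3554 TPM in eggs with pupae second at 596 TPM. The counting of reads that fit both genes is not stated, so reads shared between near-identical copies cannot be told apart from separate signals. CAG9854464.1 had 1707, 1604 and 2481 CPM in eggs and 25.2, 39.7 and 114.6 CPM in pupae. It had 16.0, 20.1 and 40.9 CPM in larvae, 36.1, 60.6 and 22.6 CPM in female adults and only 3.64, 6.55 and 7.62 CPM in male adults, below all the other libraries.

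Female adults came second for CAG9863960.1 and CAG9863613.1. CAG9863960.1 had 2593, 1707 and 3104 CPM in eggs and 306, 401 and 257 CPM in female adults. It had 381, 463 and 418 CPM in larvae, 160.1, 201 and 277 CPM in pupae and 256, 175 and 245 CPM in male adults. In mean CPM larvae were above female adults, although their libraries overlapped, while in TPM female adults came second, at 669 TPM against 429 TPM in larvae. CAG9863613.1 had 3606, 2581 and 3608 CPM in eggs and 391, 452 and 301 CPM in female adults. Its values were 254, 318 and 405 CPM in larvae, 125, 177 and 219 CPM in pupae and 191, 131 and 187 CPM in male adults. Both genes were above 100 CPM in every library, with the egg libraries clear of all others.

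Male adults came second for the egg genes of highest egg TPM, CAG9863732.1 at 7977 TPM and CAG9861252.1 at 6413 TPM. CAG9863732.1 had 1242, 2922 and 2098 CPM in eggs and 3.12, 3.56 and 2.58 CPM in male adults. It had 1.14, 1.28 and 1.84 CPM in larvae, 0.227, 0.193 and 0.165 CPM in pupae and 0.462, 0.0736 and 0.247 CPM in female adults. The group values outside the egg were low but ordered, with male adults above larvae and larvae above pupae and female adults in every library. CAG9861252.1 had 9905, 1164 and 4549 CPM in eggs, the widest range of these 8 genes. Outside the egg it lay between 0.147 and 3.56 CPM, with pupae and male adults each above all female adult libraries and the other pairs of groups overlapping.

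**Figure D3:**
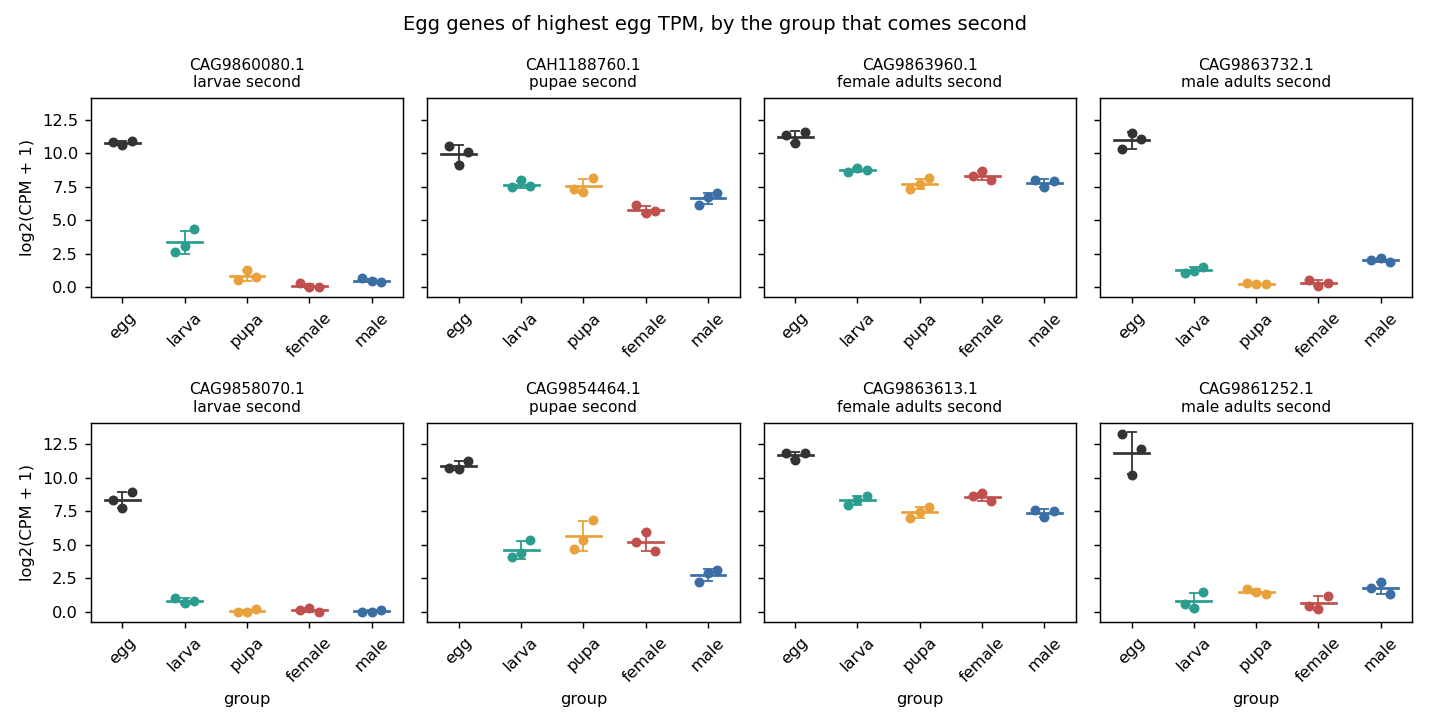
Each panel shows 1 of the 8 genes as log2(CPM + 1) in the 15 libraries, with a dot per library, a line at the group mean and bars of 1 SD (n = 3) on the same log2 scale. The genes with larvae or male adults second lie at 19.0 CPM or less in every library outside the egg, while CAH1188760.1, CAG9863960.1 and CAG9863613.1 stay above 5 on this scale in every library.

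The 3 egg libraries differed from each other in many egg genes. The highest exceeded the lowest by a median of 2.14 times in the egg genes, against 1.64 times over the 8343 genes, and on rebuilt TPM by 1.80 against 1.62 times. A single high egg library can lift the egg mean that the rule used, so the spread is not independent of the choice of genes and is given as a description. The difference was 3 times or more in 52 of 160 egg genes (32.5%), against 17.98% of the 8343, and 10 times or more in 18 (11.3%), against 6.37%. Egg library 3 was the highest in 93 egg genes (58.1%), against 37.4% of the 8343, and the lowest in 10 (6.25%), against 24.6%. Egg library 2 was the lowest in 108 egg genes (67.5%), against 44.3%. Scaling matters for this order. On per-library TPM rebuilt from the counts and the group means, egg library 3 was again the most frequent highest, in 79 egg genes (49.4%) against 21.4% of the 8343, and egg library 2 was the lowest in 75 (46.9%) against 19.4%. Each library is 1 sample and the labels give no age of the eggs, so no test was made.

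**Figure D4:**
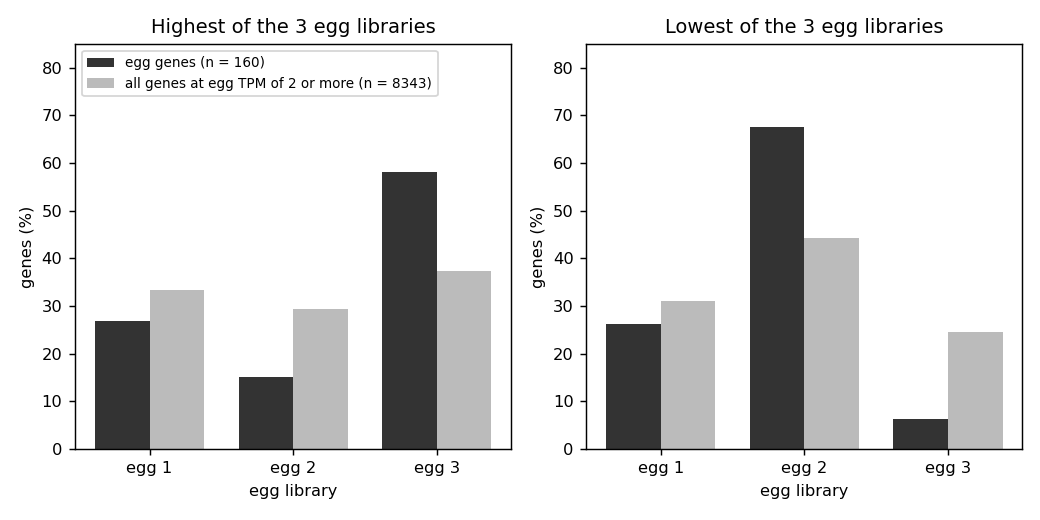
Bars give the percentage of genes for which each egg library was the highest (left panel) or the lowest (right panel) of the 3 in CPM, dark for the 160 egg genes and pale for the 8343 genes with at least 2 TPM in eggs. Egg library 3 leads among the highest with 58.1% of egg genes, and egg library 2 among the lowest with 67.5%.

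Some egg genes rested largely on a single egg library. In 46 genes (28.8%) more than 50% of the summed CPM of the egg libraries came from 1 library, against 21.1% of the 8343 genes. Egg library 1 held the majority in 14 of them, egg library 2 in 16 and egg library 3 in 16. The widest range among genes averaging at least 10 CPM in eggs was that of CAG9855363.1, with 267, 1.57 and 532 CPM in egg libraries 1, 2 and 3, a ratio of 339. Its value in egg library 2 was below that of every larval library, which had 54.2, 4.53 and 29.9 CPM. The narrowest range was that of CAG9857304.1, with 116, 131 and 134 CPM in eggs, against 0.751 to 6.84 CPM in the 12 other libraries. The spread grew with restriction, from a median of 1.94 times in the band of 5 to 10 to 2.68 times in the band of 100 and over.

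The choice of genes was then followed library by library, since the group means carry no spread. Set against the mean rebuilt TPM of the other groups, egg library 1 alone met the limits of 2 TPM and 5-fold in 119 of the 160 genes. Egg library 2 did in 132 and egg library 3 in 138, and all 3 did in 95 genes. When the egg mean was taken over 2 libraries, 147, 144 and 145 of the 160 remained without egg libraries 1, 2 and 3, and 118 remained in all of these cases. In 72 genes the lowest egg library was at least 5 times the highest of the 12 other libraries. At the edge of the rule lay CAH1185459.1, with 5.03 times as much TPM in eggs as in female adults, and CAG9862859.1, with 5.04 times as much as in pupae. Just outside it were CAG9865312.1 at 4.94 times female adults and CAG9859336.1 at 4.89 times pupae.

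A set of comparisons that left the eggs out was used to see how the egg genes behaved in the rest of the life cycle. The counts were tested with edgeR's quasi-likelihood method in 1 model of all 15 libraries, and a call needed a change of at least 2-fold and an adjusted p (Benjamini-Hochberg, over 11440 genes) below 0.05. The low-count filter, which took in the egg libraries, kept 156 of the 160 egg genes, some of them only through their egg counts. Of these, 3 had no count outside the egg and could not be called. The 4 left out were CAG9861124.1, CAG9864754.1, CAG9855659.1 and CAG9861150.1, each with at most 280 counts in eggs that came mainly from 1 or 2 libraries. The rule caps egg genes outside the egg, so most comparisons were made at low levels, and 54 of the 156 (34.6%) were called in none of the 6 comparisons, beside 24.0% of all genes. Shares of the 156 are therefore not on equal terms with those of all genes, and nothing is read from the difference. A fit whose filter used only the 12 libraries outside the egg tested 135 egg genes of 11372 genes, and its counts are given after the main ones. Medians, calls in both sexes and calls of 1 group above the 3 others were taken from the 156 only. Of these 156, 21 were not tested in the fit without eggs. The comparisons share groups and are given side by side. Largest rises and falls are ranked by the fitted log2 change, which for a gene with no count in a group is no measured size, so other genes can have larger measured folds.

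In pupae against larvae, 32 of 156 egg genes (20.5%) were higher in pupae, beside 20.3% of all genes, and 15 (9.62%) were lower, beside 20.3%. In the fit without eggs, 27 of 135 were higher (beside 22.0% of all genes) and 14 lower (10.4%, beside 21.6%). The median log2 change of the egg genes was 0.34, against 0.15 over all genes. The largest fitted rise was that of CAG9858591.1, with 1.36, 1.78 and 0.826 CPM in pupae, while larvae held none of its reads. Pupae were at least 23.1-fold higher (adjusted p = 0.000817, edgeR). Bounds of this kind set the empty group at 3 counts summed over its libraries and cover counting error only. The largest fitted fall was that of CAG9863444.1, with 0.303, 0 and 0.132 CPM in pupae against 6.90, 4.49 and 1.21 CPM in larvae, a log2 change of -4.80 ± 0.92 (SE, adjusted p = 0.000939, edgeR). Its groups did not overlap, and larva replicate 1 was the highest. Without that library the log2 change was -4.24, and 32 egg genes were higher in pupae and 17 lower, with 40 of the 47 calls shared. With same-numbered libraries taken as a block, 32 egg genes were higher and 16 lower. The log2 change of CAG9863444.1 was then -4.93 (adjusted p = 0.002, edgeR), and CAG9858591.1 had an adjusted p of 0.000985 (edgeR).

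In female adults against pupae, 12 egg genes (7.69%) were higher in female adults, beside 23.5% of all genes, and 50 (32.1%) were lower, beside 26.8%. The fit without eggs gave 14 of 135 higher (10.4%, beside 27.8%) and 42 lower (31.1%, beside 26.8%). The median log2 change was -0.95 in the egg genes and -0.09 over all genes. CAG9863626.1 had the largest fitted rise, with 27.5, 31.0 and 24.2 CPM in female adults against 2.95, 3.02 and 2.11 CPM in pupae, a log2 change of 3.35 ± 0.40 (SE, adjusted p = 4.12e-05, edgeR). Its eggs held 243, 112 and 272 CPM, so female adults stood between eggs and the other groups. CAG9861598.1 had the largest fitted fall, with no count in female adults against 0.946, 0.889 and 2.11 CPM in pupae, at least 34.0-fold lower (adjusted p = 0.00152, edgeR). The balance of directions was one-sided under TMM and less so with library size alone, which gave 24 higher and 34 lower and put the median of all genes at 0.42.

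In male adults against pupae, 5 egg genes (3.21%) were higher in male adults, beside 18.4% of all genes, and 36 (23.1%) were lower, beside 17.2%. The fit without eggs gave 5 of 135 higher (3.70%, beside 19.1%) and 34 lower (25.2%, beside 19.5%). DESeq2's Wald test called 10 higher, as did edgeR on the 2 groups alone. The median log2 change was -0.63, against 0.10 over all genes. The genes called higher were CAG9857186.1, CAG9863732.1, CAG9862943.1, CAG9863431.1 and CAG9857704.1, named because they are so few. Their number was 9 without larva replicate 1 and 8 without larva replicate 3, and the 36 lower calls were 23 without pupa replicate 3. CAG9857186.1 had the largest fitted rise, with 2.31, 4.70 and 6.496 CPM in male adults and no count in pupae, at least 124-fold higher in male adults (adjusted p = 0.000194, edgeR). Larvae held no count of it and female adults 2, while eggs had 102, 76.7 and 131 CPM. The largest fitted fall was that of CAG9858591.1, with no count in male adults, at least 27.5-fold lower than in pupae (adjusted p = 0.000761, edgeR). CAG9860232.1, named after its values were seen, had 0.0385 CPM in male adults (2 counts) against 4.10 CPM in pupae (341 counts). Lower calls in both sexes were found for 19 egg genes (12.2%), beside 12.6% of all genes, and higher calls in both for 2 (1.28%), CAG9862943.1 and CAG9863431.1, beside 13.1%.

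Female and male adults carry the same column prefix, so their comparison lies within 1 prefix. Of the egg genes, 20 (12.8%) were higher in female adults, beside 11.7% of all genes, and 21 (13.5%) were lower, beside 15.9%. The fit without eggs gave 28 of 135 higher (20.7%, beside 16.4%) and 17 lower (12.6%, beside 17.1%). CAG9858591.1 had 8.24, 7.10 and 1.81 CPM in female adults and no count in male adults, at least 119-fold higher in female adults (adjusted p = 0.000469, edgeR). In eggs it had 1134, 1082 and 979 CPM, a ratio of highest to lowest of 1.16. CAG9861598.1 was the reverse, with no count in female adults against 3.70, 4.84 and 6.95 CPM in male adults, at least 133-fold lower in female adults (adjusted p = 0.00126, edgeR), and it had 55.0, 29.3 and 59.7 CPM in eggs. The split between directions moved with scaling. Library size alone gave 31 higher and 14 lower in female adults, and put the median of all genes at 0.09 in place of -0.23. DESeq2 size factors gave 13 higher and 22 lower (median of all genes -0.35). Without female adult replicate 2 the 41 calls became 26, 14 higher and 12 lower. The lower calls were 13 without female adult replicate 1 and 11 without male adult replicate 2.

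Adults were also set against larvae, which share their prefix. This pair of comparisons was added after the files were seen. In female adults 12 egg genes (7.69%) were higher than in larvae, beside 16.5% of all genes, and 24 (15.4%) were lower, beside 20.3%. The fit without eggs gave 14 of 135 higher (10.4%, beside 19.8%) and 20 lower (14.8%, beside 19.6%). Library size alone turned this balance, with 24 higher and 12 lower. Without female adult replicate 1 there were 6 higher and 21 lower, and without larva replicate 1 there were 13 and 25. In male adults 12 (7.69%) were higher than in larvae, beside 10.6%, and 23 (14.7%) were lower, beside 10.4%. The fit without eggs gave 10 of 135 higher (7.41%, beside 11.9%) and 26 lower (19.3%, beside 12.4%), and library size alone gave 17 higher and 15 lower. Male adults had 17 higher and 28 lower without larva replicate 1, and 7 higher without larva replicate 2. Over all genes the median was 0.57 under library size alone and -0.10 under TMM in the female comparison, and 0.46 and 0.09 in the male one.

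**Figure D5:**
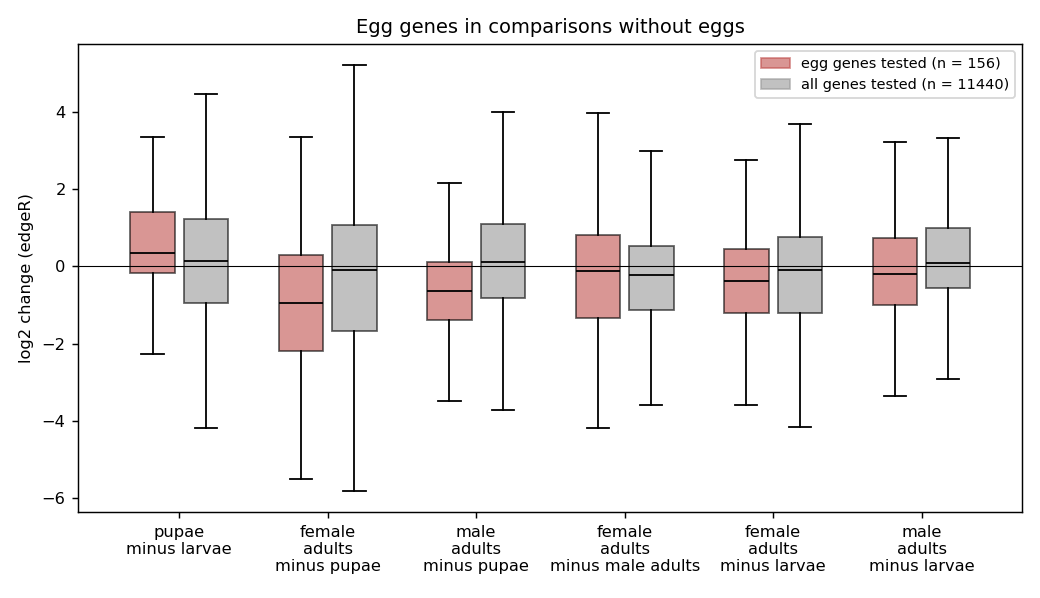
Boxes show the log2 changes of the 156 egg genes tested (red) and of all 11440 genes tested (grey) in the 6 comparisons without eggs, with the median as a line, the quartiles as box ends and whiskers to 1.5 times the interquartile range (points beyond are not drawn). The egg genes lie lowest against pupae, with medians of -0.95 in female adults and -0.63 in male adults. The 156 include 21 genes not tested when the filter left the egg libraries out, and 3 with no count outside the egg. No medians were taken without these genes.

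By these calls only a few egg genes had 1 group above the 3 others outside the egg. The counts come from the fit of all 15 libraries, whose filter kept some genes only through their egg counts, so nothing is read from the shares. Pupae were called above larvae, female adults and male adults in 10 egg genes (6.41%), beside 10.1% of all genes. Female adults were above the 3 other groups in 4 (2.56%), beside 5.66%, and these were CAG9858591.1, CAG9859417.1, CAG9861864.1 and CAG9863626.1. In CAG9861864.1 eggs had 286 TPM, against 51.7 TPM in female adults and at most 7.68 TPM elsewhere. Larvae were above the 3 others in 4 (2.56%), beside 5.36%, namely CAG9860080.1, CAG9858070.1, CAG9863444.1 and CAG9856532.1. Male adults were so in 1 (0.641%), CAG9857186.1, beside 2.01%. In 2 egg genes (1.28%) the sexes moved in opposite directions from pupae, beside 0.752% of all genes. These were CAG9858591.1 and CAG9863626.1, both higher in female adults and lower in male adults than in pupae.

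Most egg genes were shorter than the median gene. The rule set no limit on length, but it used TPM, which is scaled by length, so length is not independent of the choice of genes. Lengths were solved from the counts and the deposited TPM, with the median gene set to 1, and the deposited egg means were returned to within a median of 0.106% for the egg genes. The median length of the egg genes was 0.762, with quartiles of 0.424 and 1.07, against quartiles of 0.620 and 1.63 over 11794 genes with counts. Over the 8343 genes at 2 TPM or more in eggs the median was 1.11. In 111 of the 160 (69.4%) the length was below that of the median gene. The most restricted genes were the shortest, with a median of 0.391 in the band of 100 and over, against 0.859 in the band of 5 to 10. Short genes get fewer reads per transcript, and whether this bears on the result was not tested.

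Some egg genes carried consecutive identifiers, a feature looked at after the data were seen. Of the 268 identifiers that come just before or after that of an egg gene and are in the table, 12 (4.48%) belonged to egg genes, while egg genes made up 1.35% of the table. They formed 6 pairs. The pair of CAG9858069.1 and CAG9858070.1 is described above. CAG9858069.1 had no count outside the egg and CAG9858070.1 had 52. CAH1188805.1 and CAH1188806.1, at 3060 and 3554 TPM in eggs, both had pupae second. Whether such genes lie side by side in the genome was not analysed here. Identifiers starting with CAH made up 8.75% of the egg genes and 8.73% of all genes.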

How the data were processed

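Per the labels' protocols, whole-body RNA was isolated in TRIzol and made into libraries with a TruSeq kit. The authors deposited raw read counts per gene. Trimming, alignment and counting tools are listed as fastp, HISAT2 and featureCounts in the submitters' processing notes. No source used here gives their versions, the genome build or the strand setting, so overlapping genes on opposite strands may share reads. The authors also deposited TPM averaged over each group, with no spread, and lists of specific genes. Groups and replicate numbers come from the sample titles, and columns were matched by library name.

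Genes passing filterByExpr (11440) were scaled by TMM and tested with edgeR 4.0.16 in R 4.3.3, by a robust quasi-likelihood fit of 5 groups. Standard errors are the log2 change over the square root of F. TPM per library was rebuilt by solving for 1 relative length per gene (pandas 2.3.3). Both steps were tested on simulated data. For the edgeR test, changes were simulated in pupae against larvae only, in genes above a floor of mean CPM. That simulation did not cover the low levels that most egg genes had outside the egg. Alternatives were DESeq2 1.42.0, other scalings, no filter, a replicate block, the 2 compared groups alone and each library left out. A fit without the egg libraries was added. Same-numbered pupal and larval libraries deviated together, with correlations across genes of 0.526, 0.274 and 0.264. The main fit did not use this pairing. With a replicate block that comparison called 48 egg genes against 47. The members and lists were chosen with earlier results of these data known. By rule, the genes named are the 2 of highest egg TPM for each second group, the largest fitted log2 rise and fall among calls in each planned comparison, the largest and smallest egg spread at a mean of 10 CPM or more, and the 2 genes just inside and just outside the 5-fold limit. Others are named after their values were seen, where a count is small. Gene lists by function could not be used, since the files pair no names with the identifiers.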

Additional observations from a re-analysis of the deposited data

Results flagged for a closer look

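These genes are among those named by rule, and all differed between the sexes in the edgeR test. It is the test of whether the change from pupae differs between the sexes. Other egg genes called between the sexes are not listed here, some of them with larger fitted differences. The change from pupae itself was not called in either sex for CAH1185459.1, in female adults for CAG9854464.1, CAG9863732.1 and CAG9857186.1, or in male adults for CAG9863613.1 and CAG9861598.1. The log2 change from pupae in female adults exceeded that in male adults by 4.58 in CAG9863626.1, 2.74 in CAG9854464.1, 1.70 in CAG9862859.1, 1.17 in CAG9863613.1 and 1.0014 in CAH1185459.1. It was lower by a log2 of -3.54 in CAG9863732.1. In genes with 2 or fewer counts in a sex the fitted differences are not bounds: 10.1 in CAG9858591.1, -9.95 in CAG9861598.1 and -7.17 in CAG9857186.1. No explanation was tested.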

How the results depend on the processing

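Of 160 alternative values for counts of calls, numbers of egg genes and shares, 156 stayed within 1.5 times (shares: within 1 SD of) the main value, and the 176 alternative values for 8 log2 changes of 5 named genes kept direction and call. The limit of 1.5 times took the total of calls and not their directions. In female adults against larvae, library size alone kept the total at 36 while the split turned. It went from 12 higher and 24 lower to 24 higher and 12 lower, with 24 calls shared. The rule gave 386 egg genes at 3-fold and 77 at 10-fold. The rule gave 72 when the lowest egg library had to exceed the highest other library 5 times. In CPM in place of TPM it gave 166, of which 138 were among the 160. Leaving out 1 library gave 144 to 172 egg genes, 5.499% to 6.21% of egg counts, and these numbers of calls: 37 to 50 for pupae against larvae, 49 to 67 for female adults and 28 to 51 for male adults against pupae, 26 to 45 between the sexes, and 27 to 39 for female and 24 to 45 for male adults against larvae. The lowest value between the sexes, 26, came without female adult replicate 2. With the replicate block the calls numbered 48, 61, 40, 40, 33 and 31 in the same order, and the 8 log2 changes given with a p for 5 genes kept their calls. Outside pupae and larvae, the deviations of same-numbered libraries had correlations of -0.309 to 0.118. The titles give such libraries a common number and state no other link, and whether they share a batch was not tested. DESeq2's Wald test called 57, 72, 46, 47, 51 and 44 in that order. The share of egg counts, already on library size alone, was 5.21% under TMM.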
